A study of Mus musculus with 17 samples.

Results

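Lgals3, Gpnmb, Spp1, Trem2, Tyrobp and Mpeg1, genes known from macrophages that engulf dead cells and digest their lipid, were examined in leg muscle of dystrophic mice. The set of 6 genes was chosen by its response on these same arrays, where it held some of the largest differences, so its differences between groups are a description and carry no test. All probe sets annotated to exactly 1 of the 6 symbols were taken, which gave 6 probe sets for 5 genes of the 12393 genes measured. Trem2 had 2 of them, and no probe set was found under the symbol Spp1, which is not analysed here.

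The 17 arrays hold tibialis anterior, a muscle of the front of the lower leg, from 5 fiona, 6 mdx and 6 normal mice, described as biological replicates. The mdx mouse carries a mutation that ends expression of full-length dystrophin, and fiona mice have that mutation too, together with a transgene that gives high utrophin, a protein related to dystrophin. Normal mice carry neither, and the strain of the normal mice and the promoter of the transgene are not given in the labels. All animals were 56 days old and labelled as male. Each array took 8 µg of RNA from the pooled left and right muscles, and precision is limited by how few arrays there are per group.

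When muscle fibres die, monocytes enter the muscle, become macrophages, engulf the debris and later take part in repair. TREM2 is a receptor on such cells for lipids and lipoproteins, and it has no signalling tail of its own but passes its signal through the adaptor TYROBP, also known as DAP12. Galectin-3, the product of Lgals3, is a sugar-binding lectin, GPNMB is a membrane glycoprotein of lysosomes and phagosomes, Spp1 encodes the secreted protein osteopontin, and perforin-2, the product of Mpeg1, is a pore-forming protein of the phagosome that attacks engulfed bacteria.

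The sequences around the start sites of the members are shown as a description, and their part in the members' levels was not tested. RefSeq (GRCm38.p6) windows running from 250 bases before to 50 bases after the start were matched for 4 of the 5 measured genes, Lgals3, Gpnmb, Trem2 and Mpeg1. Both strands were searched for GAGGAA, the core of the site of the myeloid factor PU.1, for TGANTCA, a site of AP-1, for the E-boxes CACGTG and CATGTG and for TATAAA, and matches stand in capitals in the lines that follow. The E-boxes were counted apart, and no motif found overlaps another.
Gpnmb, chr6:49036268-49036567, plus strand: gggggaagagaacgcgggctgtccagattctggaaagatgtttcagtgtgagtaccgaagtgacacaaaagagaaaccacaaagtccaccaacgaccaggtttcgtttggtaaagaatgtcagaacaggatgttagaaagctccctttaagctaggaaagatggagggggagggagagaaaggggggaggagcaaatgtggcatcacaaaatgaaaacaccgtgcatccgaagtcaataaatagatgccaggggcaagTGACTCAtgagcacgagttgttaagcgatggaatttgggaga
Trem2, chr17:48346151-48346450, plus strand: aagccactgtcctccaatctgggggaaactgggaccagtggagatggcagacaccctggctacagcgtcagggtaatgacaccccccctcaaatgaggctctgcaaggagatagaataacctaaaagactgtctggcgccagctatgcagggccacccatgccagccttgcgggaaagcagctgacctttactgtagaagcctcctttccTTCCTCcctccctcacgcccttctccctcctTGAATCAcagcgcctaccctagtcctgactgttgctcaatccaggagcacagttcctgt
Lgals3, chr14:47373610-47373909, plus strand: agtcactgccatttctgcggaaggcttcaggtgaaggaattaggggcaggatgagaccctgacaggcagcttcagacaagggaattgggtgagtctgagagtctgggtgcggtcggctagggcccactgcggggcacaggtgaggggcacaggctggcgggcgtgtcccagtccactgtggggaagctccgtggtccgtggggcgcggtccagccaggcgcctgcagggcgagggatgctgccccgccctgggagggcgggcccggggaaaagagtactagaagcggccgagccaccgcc
The Gpnmb window holds the AP-1 letters TGACTCA at base 8 after the start, and the Trem2 window holds TGAATCA at base -9 and TTCCTC, the PU.1 core read on the other strand, at base -40. The windows of Lgals3 and Mpeg1 hold none of the motifs searched, which says only that these letters are not in these windows. Of 32851 windows of the same length, 7.81% hold TGANTCA, 28.3% hold GAGGAA, 7.15% hold CACGTG, 14.2% hold CATGTG and 13.6% hold TATAAA. The share of G and C was 47.7% in Gpnmb, 56.0% in Trem2, 67.0% in Lgals3 and 39.0% in Mpeg1. A match is a run of letters and not a shown binding site.

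Values are the deposited log2 expression values, on which a step of 1 is a doubling. Array medians ranged from 3.52 to 3.82, and any 2 arrays correlated at 0.939 to 0.996. The mutation was visible in the groups that should carry it on 2 of the 3 Dmd probe sets. Dmd, the dystrophin gene, averaged 3.39 ± 0.14 in fiona muscle, 3.35 ± 0.10 in mdx muscle and 6.64 ± 0.20 in normal muscle (SD, n = 5, 6 and 6) on the middle one, by brightness, of 3 probe sets. The brightest averaged 5.04 ± 1.05 in fiona, 5.33 ± 0.77 in mdx and 8.34 ± 0.77 in normal muscle, and the dimmest 3.28 ± 0.22, 2.99 ± 0.05 and 3.11 ± 0.13 in fiona, mdx and normal muscle. Utrn, the utrophin gene, was uneven over the fiona arrays. On the middle one of its 3 probe sets it measured 6.39, 2.68, 3.54, 7.02 and 3.02 on the fiona arrays, 2.58 to 2.67 on the mdx arrays and 2.57 to 2.77 on the normal arrays. On the dimmest it measured 4.94, 3.04, 3.78, 7.28 and 2.48 on the fiona arrays, 2.04 to 2.10 on the mdx arrays and 2.07 to 2.17 on the normal arrays. Fiona array 2 on the middle and fiona array 5 on the dimmest probe set were no higher than the bacterial control probe sets, as were all mdx and normal arrays on both. All 5 fiona arrays lay above every mdx and normal array on the dimmest probe set, and 4 of 5 did on the middle one. The brightest did not separate the groups, with 6.57 ± 0.82 in fiona, 6.98 ± 0.39 in mdx and 6.81 ± 0.26 in normal muscle, and fiona array 5 was the lowest of the 17 there, at 5.21. The mean of 8 muscle fibre markers lay between 14.6 and 14.8 on the fiona arrays, between 14.6 and 14.8 on the mdx arrays and between 14.6 and 14.9 on the normal arrays. Although all animals are labelled male, 4 fiona arrays, 2 mdx arrays and 1 normal array had the female pattern, high Xist and low Eif2s3y. Mdx array 6 was mixed, with Xist at 5.40 and Eif2s3y at 8.11, and is kept among the arrays without the female pattern. Once the group means were removed, the arrays also split into a set of 8 and a set of 9 along a component that held 42.5% of the remaining variance. Both sets hold all 3 groups, with 2 fiona, 3 mdx and 3 normal arrays in set 1 and 3 of each in set 2, so member values are also given within each. Set 1 holds the arrays numbered 3, 4 and 5 of both the mdx and the normal group, and fiona arrays 1 and 4.

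Lgals3, Gpnmb, Tyrobp and Mpeg1 were far higher in mdx muscle than in fiona and normal muscle, and each of the 6 mdx arrays lay above every fiona and every normal array. One Trem2 probe set showed a smaller difference of the same direction, and the other averaged slightly higher in fiona than in mdx muscle, with overlap. In fiona muscle, Lgals3 and Mpeg1 stood above their level in normal muscle on average and Tyrobp stood 0.19 above it, each with overlap between the groups, while Gpnmb was no higher than the bacterial controls in fiona and in normal muscle. In whole muscle, fewer cells of a type and less RNA per cell cannot be told apart.

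**Figure D1:**
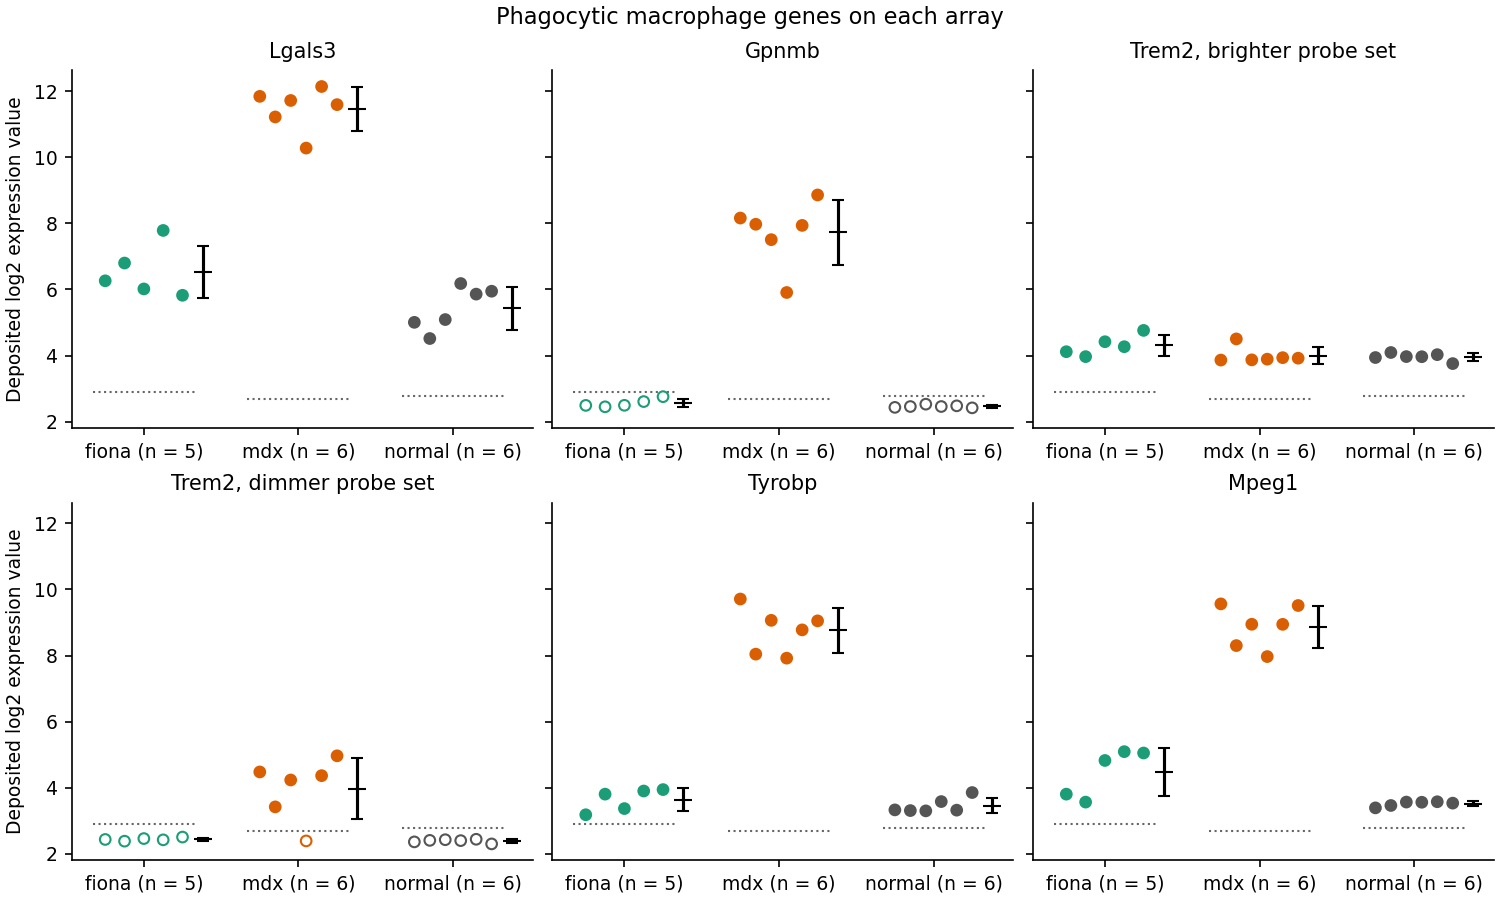
Deposited log2 expression values of the 6 member probe sets, with 1 point per array for 5 fiona, 6 mdx and 6 normal arrays. Black bars give the mean and SD, dotted lines the mean level of the bacterial control probe sets, and open points lie at or under that level on their own array; the mdx arrays stand apart for Lgals3, Gpnmb, Tyrobp and Mpeg1 and not for the brighter Trem2 probe set.

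Trem2, the lipid receptor, was read on 2 probe sets that disagreed. On the dimmer, whose suffix (_s_at) marks probes that match more than 1 transcript, it measured 2.44, 2.38, 2.46, 2.42 and 2.51 on the fiona arrays, 4.48, 3.42, 4.24, 2.39, 4.37 and 4.97 on the mdx arrays, and 2.30 to 2.44 on the normal arrays with a median of 2.40. All fiona arrays, all normal arrays and mdx array 4 were no higher than the bacterial controls, so mdx muscle stood at least 2.12-fold above fiona muscle and at least 2.31-fold above normal muscle. On the brighter probe set it measured 4.11, 3.97, 4.42, 4.27 and 4.76 on the fiona arrays, 3.86 to 4.50 on the mdx arrays with a median of 3.90, and 3.76 to 4.09 on the normal arrays with a median of 3.96. The 3 groups overlapped there, and fiona array 5 was the highest of all. On that probe set the log2 difference was 0.31 for fiona minus mdx and 0.04 for mdx minus normal. Having the higher mean of the pair, the brighter probe set represents Trem2 wherever each gene is counted once.

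Tyrobp, the adaptor that TREM2 signals through, measured 3.18, 3.81, 3.37, 3.90 and 3.94 on the fiona arrays, 7.92 to 9.71 on the mdx arrays with a median of 8.91, and 3.30 to 3.86 on the normal arrays with a median of 3.33. The lowest mdx array stood far above the highest fiona and the highest normal array, while the fiona and normal arrays overlapped. The mean was 3.64 ± 0.34 in fiona, 8.76 ± 0.68 in mdx and 3.45 ± 0.23 in normal muscle (SD). The difference fiona minus mdx was -5.12, a 34.8-fold lower level, and the difference mdx minus normal was 5.31, a 39.7-fold higher one. Within array sets 1 and 2, fiona minus mdx was -5.05 and -5.23, and mdx minus normal was 5.19 and 5.44.

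Lgals3, the galectin-3 gene, measured 6.26, 6.80, 6.01, 7.78 and 5.82 on the fiona arrays, 10.3 to 12.1 on the mdx arrays with a median of 11.7, and 4.51 to 6.18 on the normal arrays with a median of 5.47. Fiona array 4 was the highest outside mdx, and 3 of 5 fiona arrays lay above every normal array. The means were 6.54 ± 0.79 in fiona, 11.5 ± 0.66 in mdx and 5.43 ± 0.66 in normal muscle. The level in fiona muscle was 30.5-fold lower than in mdx muscle (log2 difference -4.93), and that in mdx muscle was 65.5-fold higher than in normal muscle (log2 difference 6.03), first of 20380 probe sets in order of increase. Within array sets 1 and 2 the difference fiona minus mdx was -4.36 and -5.34, and mdx minus normal was 5.67 and 6.40. On the 1 fiona, 4 mdx and 5 normal arrays without the female pattern, fiona minus mdx was -3.88.

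Gpnmb, the lysosomal glycoprotein, measured 2.49, 2.45, 2.49, 2.61 and 2.75 on the fiona arrays, 5.91 to 8.86 on the mdx arrays with a median of 7.95, and 2.42 to 2.53 on the normal arrays with a median of 2.46. Every fiona and every normal array was no higher than the bacterial controls, and every mdx array was above them. Fiona muscle was therefore at least 28.4-fold lower than mdx muscle, and mdx muscle at least 31.0-fold higher than normal muscle. No fold is given between fiona and normal muscle, where both groups were at the control level.

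Mpeg1, the perforin-2 gene, measured 3.81, 3.57, 4.83, 5.09 and 5.05 on the fiona arrays, 7.97 to 9.56 on the mdx arrays with a median of 8.95, and 3.39 to 3.58 on the normal arrays with a median of 3.55. Fiona arrays 3, 4 and 5 lay apart from fiona arrays 1 and 2, and 4 of 5 exceeded every normal array. The means were 4.47 ± 0.73 in fiona, 8.87 ± 0.64 in mdx and 3.52 ± 0.07 in normal muscle. Fiona muscle was 21.2-fold lower than mdx muscle (log2 difference -4.41), and mdx muscle was 41.0-fold higher than normal muscle (log2 difference 5.36). Within array sets 1 and 2, fiona minus mdx was -4.17 and -4.65, and mdx minus normal was 5.05 and 5.66.

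Counting each gene once, 4 of the 5 measured members had every fiona array below every mdx array, as had 2.4% of all genes, and 4 of 5 had every mdx array above every normal array, as had 2.54% of all genes. Trem2 was the exception in both. The members were chosen on these contrasts, so nothing is read from those shares. When each array was left out in turn, the differences ranged for Lgals3 from -5.24 to -4.75, for Tyrobp from -5.29 to -4.93 and for Mpeg1 from -4.59 to -4.18 in fiona minus mdx, the fits without fiona array 2 or 5 included.

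Between fiona and normal muscle, the members differed far less. The log2 difference fiona minus normal was 1.10 for Lgals3, a 2.15-fold higher level in fiona muscle, and 0.95 for Mpeg1, a 1.94-fold higher one. It was 0.35 for Trem2 on its brighter probe set and 0.19 for Tyrobp. In order of increase over the 20380 probe sets, Lgals3 came at place 14 and Mpeg1 at place 25. Trem2 on that probe set came at place 796 and Tyrobp at place 2700. Of the 5 measured members, 0 had every fiona array above every normal array, as had 0.339% of all genes. As a share of the log2 difference mdx minus normal, the difference fiona minus normal was 18.3% for Lgals3, 17.8% for Mpeg1 and 3.6% for Tyrobp.

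Lgals3 and Mpeg1 differed in their order over the fiona arrays, apart from array 4, the highest for both. Fiona array 2 was the second highest for Lgals3, at 6.80, and the lowest for Mpeg1, at 3.57, and fiona array 5 was the lowest for Lgals3 and among the highest for Mpeg1. Within array sets 1 and 2, fiona minus normal was 1.31 and 1.06 for Lgals3 and 0.88 and 1.02 for Mpeg1. Fiona array 4 is also the 1 fiona array without the female pattern. Against the 5 normal arrays without that pattern it stood 2.46 higher for Lgals3 and 1.58 higher for Mpeg1, with no replicate, and the part of the pattern in the result was not tested.

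Among the mdx arrays the members also differed in size. Array 4 was the lowest mdx array on 5 of the 6 member probe sets, by 0.84 for Tyrobp to 1.82 for Gpnmb below the mdx mean, and the brighter Trem2 probe set was the exception. Array 6 was the highest for Gpnmb and for Trem2 on its dimmer probe set, array 1 for Tyrobp and Mpeg1, and array 5 for Lgals3. Array 4 has the female pattern and lies in set 1. Its mean over 14 macrophage markers was 5.74, within the mdx range of 5.49 to 6.66, and its mean over 9 markers of myoblasts and regenerating fibres was the highest of the mdx arrays, at 7.19 in a range of 4.98 to 7.19. The part of these in the result was not tested.

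**Figure D2:**
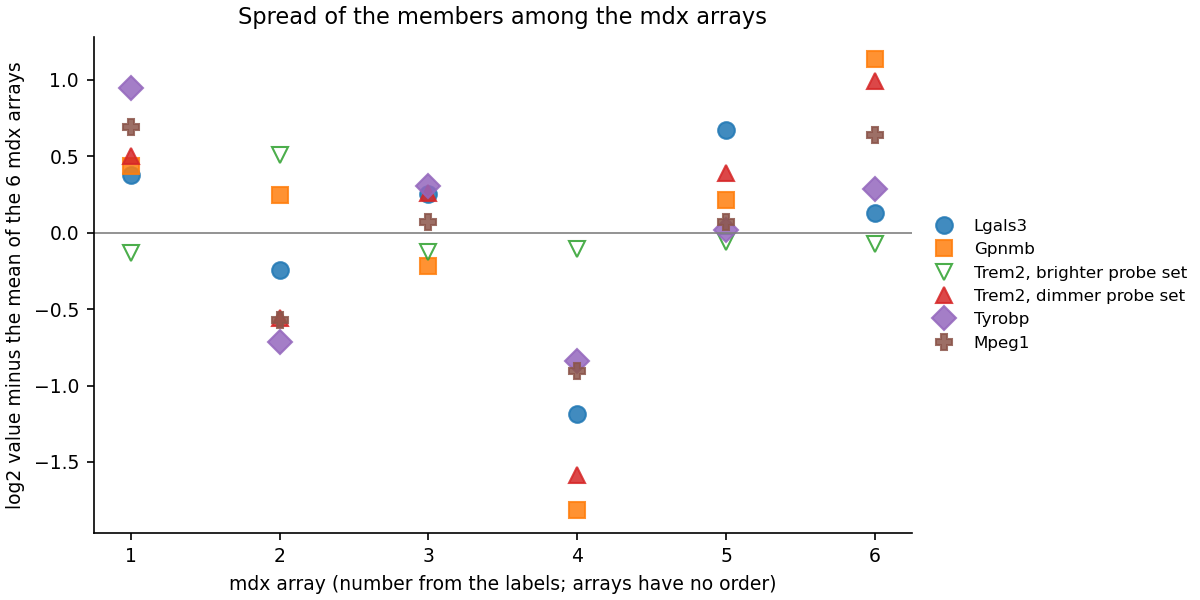
Log2 value of each member probe set on each of the 6 mdx arrays, less the mean of the 6. Array 4 lies lowest on 5 probe sets and Gpnmb spreads most, while Trem2 on its brighter probe set (open triangles) departs from its mean on array 2.

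The 15 pairs of member probe sets were correlated over the 6 mdx arrays with exact two-sided permutation tests, and 0 pairs passed 0.05 after Benjamini-Hochberg adjustment over the 15. For Tyrobp and Mpeg1, Pearson's r was 0.94 (exact permutation p = 0.0153, adjusted 0.0764) and Spearman's rho 0.94 (exact permutation p = 0.0167, adjusted 0.25). Without the 2 arrays farthest from the Tyrobp median, r was 0.71. For Trem2 on its dimmer probe set and Mpeg1, r was 0.94 (exact permutation p = 0.00556, adjusted 0.0764), rho was 0.89 (exact permutation p = 0.0333, adjusted 0.25), and r was 0.73 without the 2 farthest arrays. For Lgals3 and Gpnmb, r was 0.77 with all 6 arrays and -0.03 without the 2 farthest, so that relation rests on those arrays. The array sets hold 3 mdx arrays each, too few for a value within a set.

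The genes whose standardised values lay nearest to the mean of the 5 measured members over the 17 arrays were Cd68, Ctss, Mt1, Lcp1, Serpina3n, Rrm2, Timp1 and Lgmn. Their root mean square distances were 0.30 SD units for Cd68 to 0.37 for Lgmn, against a median of 1.52 over all genes. Cd68 encodes macrosialin, a glycoprotein of macrophage lysosomes, and Ctss and Lgmn encode the lysosomal proteases cathepsin S and legumain. Lcp1 encodes an actin-bundling protein of blood cells, Mt1 a metallothionein, Timp1 an inhibitor of metalloproteases, Serpina3n a secreted protease inhibitor and Rrm2 a subunit of ribonucleotide reductase, which makes the building blocks of DNA. Trem2 on its brighter probe set lay 1.32 from the mean it is part of. Without Trem2, a choice made after its values were seen, the 8 nearest genes shared 6 with this list, and Ifi30 and Ccl8 took the places of Mt1 and Serpina3n.

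These genes were picked for their likeness, so their levels are likewise a description. Rrm2 averaged 3.43 ± 0.18 in fiona, 7.27 ± 0.24 in mdx and 3.28 ± 0.21 in normal muscle. Timp1 averaged 7.14 ± 0.90 in mdx muscle and lay at or under the control level on all 5 fiona and all 6 normal arrays, so mdx muscle was at least 19.0-fold above fiona and at least 20.7-fold above normal muscle. Lcp1 averaged 6.30 ± 0.38 in fiona, 8.62 ± 0.45 in mdx and 5.78 ± 0.35 in normal muscle, and Lgmn averaged 5.71 ± 0.60 in fiona, 8.56 ± 0.39 in mdx and 5.49 ± 0.40 in normal muscle. For these 4 genes all mdx arrays lay above all other arrays.

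**Figure D3:**
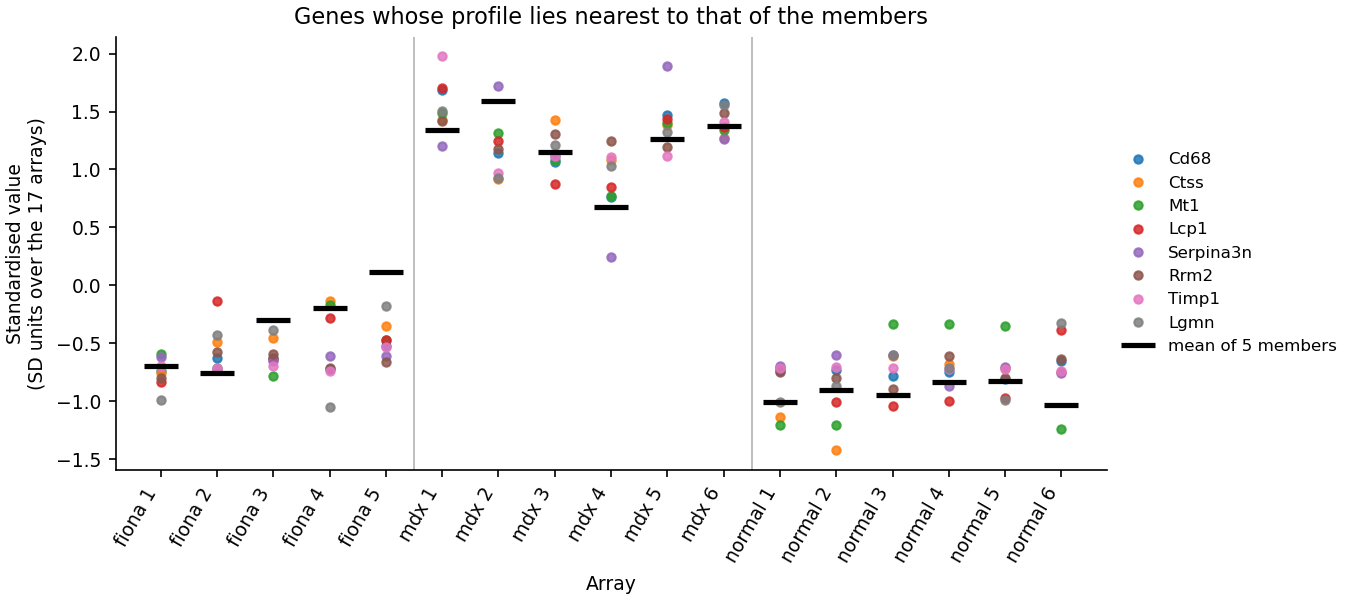
Standardised values (SD units over the 17 arrays) of the 8 genes nearest in profile to the members, with the mean of the 5 measured members as black bars. All 8 genes and the members' mean stand high on the 6 mdx arrays, although Trem2 lies below 0 on 5 of them. On fiona arrays 3 to 5 the members' mean includes Trem2 at 1.29, 0.73 and 2.58, and the other 4 members lie between -0.77 and -0.036 there.

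Genes of the same macrophage programme that are not members were tested with limma over all 12393 genes. Of 36 such genes, 32 were measured. In fiona against mdx muscle, 19 fell and 4 rose at an adjusted p under 0.05, with a median log2 difference of -1.20 against 0.08 over all genes, and 6.79% of all genes fell and 32.1% rose. In mdx against normal muscle, 16 rose and 2 fell, with a median of 1.01 against -0.04 over all genes, and 3.22% of all genes rose and 1.44% fell. In fiona against normal muscle 0 of the 32 passed, and 0% of all genes rose and 0% fell. On the arrays without the female pattern 16 fell and 0 rose in fiona against mdx muscle, and 16 rose and 1 fell in mdx against normal muscle. In fiona against normal muscle an unadjusted p under 0.05 was reached by 21.2% of all genes. These lists were drawn up with results of these arrays known and are not independent evidence of a direction.

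Lysosomal and lipid-handling genes led this list. Cd68 averaged 2.55 ± 0.18 in fiona, 6.78 ± 0.77 in mdx and 2.34 ± 0.12 in normal muscle, and all fiona and normal arrays lay at or under the control level. It fell at least 14.8-fold in fiona against mdx muscle (limma, adjusted p = 5.28e-07) and rose at least 16.1-fold in mdx against normal muscle (adjusted p = 1.13e-07). Apoe, the lipoprotein that is a ligand of TREM2, measured 4.58, 7.36, 7.18, 5.86 and 6.66 on the fiona arrays, 9.63 to 10.7 on the mdx arrays with a median of 10.5, and 6.19 to 7.34 on the normal arrays with a median of 6.80. All mdx arrays lay above all others, and fiona array 1 was the lowest of the 17. Apoe fell by 4.04 in fiona against mdx muscle (limma, adjusted p = 3.07e-05) and rose by 3.51 in mdx against normal muscle (adjusted p = 5.30e-05). Ctss, the cathepsin S gene, averaged 8.01 ± 0.48 in fiona, 11.6 ± 0.44 in mdx and 7.06 ± 0.69 in normal muscle, a fall of 12.0-fold (limma, adjusted p = 1.08e-05) and a rise of 23.3-fold (adjusted p = 3.17e-07).

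Other list genes that passed in both comparisons were Lyz2, lysozyme, Clec7a, the receptor dectin-1, Fabp5, a fatty acid binding protein, Mmp12, macrophage elastase, Cstb, an inhibitor of cathepsins, Capg, an actin-capping protein, Plin2, a coat protein of lipid droplets, and the lysosomal genes Gusb, Ctsz, Npc2, Ctsb, Hexa and Ctsl. In mdx minus normal their log2 differences ranged from 0.97 for Ctsl to 3.24 for Lyz2. Clec7a had a difference of -2.61 in fiona minus mdx and 3.05 in mdx minus normal, Fabp5 of -1.94 and 2.73, and Plin2 of -1.73 and 1.85. The fall of Fabp5 had an adjusted p of 0.28 on the arrays without the female pattern. Axl, a receptor for dying cells, Cd9, a tetraspanin, and Igf1, a growth factor, fell in fiona against mdx muscle, with differences of -1.82, -1.10 and -1.15, but did not pass in mdx against normal muscle. For Axl the adjusted p there was 0.26, with a difference of 0.73. The call for Igf1 was lost with quantile normalization (adjusted p = 0.0962), without mdx array 4 (0.0532) and on the arrays without the female pattern (0.71), and that for Cd9 on the last (0.0897).

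Lpl, Ank, Cst7 and Ch25h were the 4 genes of this list that rose in fiona against mdx muscle. Lpl, lipoprotein lipase, which muscle fibres make, averaged 12.5 ± 0.31 in fiona, 11.5 ± 0.25 in mdx and 12.7 ± 0.30 in normal muscle, and rose by 1.01 in fiona against mdx muscle (limma, adjusted p = 0.00228). Ank, a transporter of pyrophosphate, rose by 0.98 (adjusted p = 0.0139), and with median-centred arrays its adjusted p was 0.0505. Both fell in mdx against normal muscle, by 1.17 (adjusted p = 0.000335) and 1.26 (adjusted p = 0.00636). On the arrays without the female pattern adjusted p was 0.133 for Lpl and 0.402 for Ank in fiona against mdx muscle, and 0.1 for Ank in mdx against normal muscle. Cst7 and Ch25h, which passed with log2 differences of 0.13 and 0.08, lay at or under the control level on all arrays and did not pass with median-centred arrays. Over the list, median-centred arrays gave 19 genes lower and 1 higher in fiona than in mdx muscle.

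**Figure D4:**
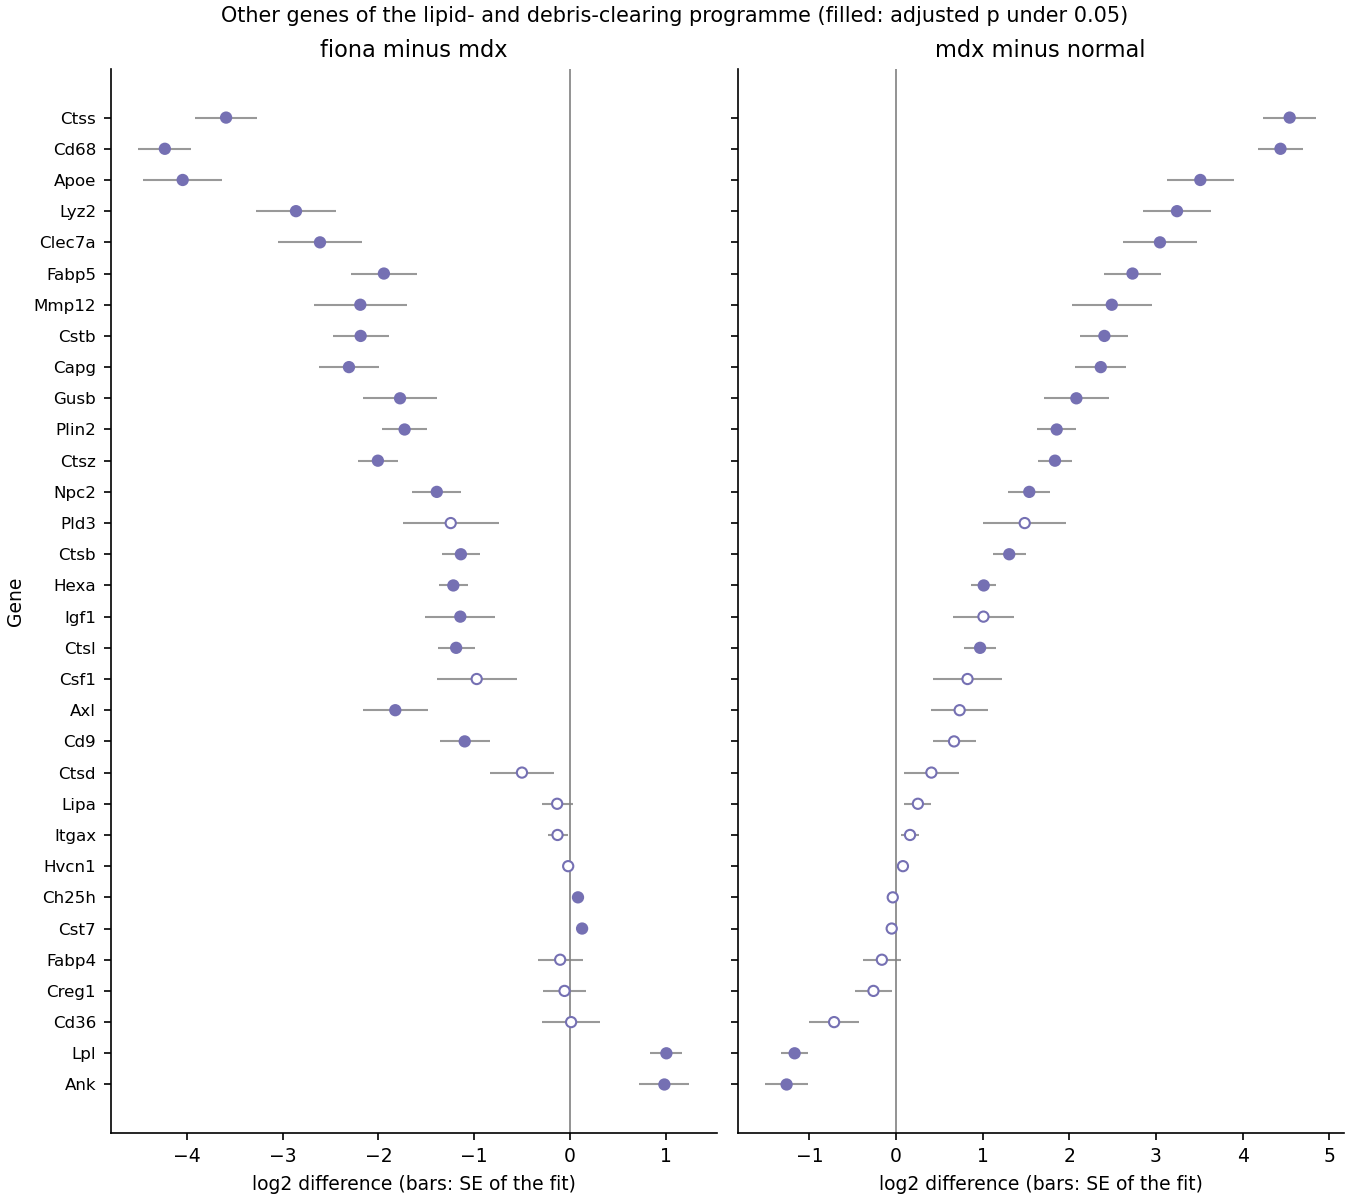
Log2 differences of the 32 measured genes of the lipid- and debris-clearing programme that are not members, fiona minus mdx on the left and mdx minus normal on the right, with bars for the SE of the limma fit and filled points for an adjusted p under 0.05. On the left 19 filled points lie below 0 and 4 above, and on the right 16 lie above 0 and 2 below.

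Of 14 measured signalling partners of TREM2 and TYROBP, which are adaptors, kinases, phosphatases and sheddases, 3 fell and 3 rose in fiona against mdx muscle, where 6.79% of all genes fell and 32.1% rose. In mdx against normal muscle, where 3.22% of all genes rose and 1.44% fell, 0 of the 14 passed. Their differences ran from -0.04 to 0.51, and 1 rose with array set as a term. The genes that fell were Grb2, an adaptor, by 0.60 (limma, adjusted p = 0.0135), and Adam10 and Adam17, the proteases that can shed TREM2, by 0.59 (adjusted p = 0.0384) and 0.49 (adjusted p = 0.0365). With quantile normalization these adjusted p values were 0.105, 0.0934 and 0.273, and with the mean of its probe sets Grb2 had an adjusted p of 0.737. The call for Adam10 was lost without any 1 of fiona arrays 3 and 5 and mdx arrays 1, 3, 4 and 5 (highest adjusted p = 0.108), and that for Adam17 without any 1 of fiona arrays 3, 4 and 5 and mdx arrays 1, 3 and 6 (highest adjusted p = 0.0753). Syk and Vav3, a kinase and an exchange factor, rose by 0.16 and 0.14, and Pik3cg passed with a difference of 0.07 although it lay at or under the control level on all 17 arrays. When the mean of a gene's probe sets was used, the difference turned to -0.21 for Syk (limma, adjusted p = 0.116). For Vav3 it was then 0.09 (adjusted p = 0.2). With median-centred arrays and with quantile normalization 0 of the 14 rose, and the centred adjusted p was 0.562 for Syk, 0.88 for Vav3 and 0.213 for Pik3cg, whose centred difference was -0.06. Of 6 other receptors that pair with TYROBP, Trem1, Trem3, Clec5a and Klrk1 rose in fiona against mdx muscle by 0.12 or less and 0 passed in mdx against normal muscle. Trem1, Clec5a and Klrk1 lay at or under the control level on all 17 arrays, and Trem3 on all but 1. With median-centred arrays, Trem1, Trem3, Clec5a and Klrk1 did not pass (adjusted p = 0.27, 0.992, 0.23 and 0.162), and the differences of Trem1, Clec5a and Klrk1 turned to -0.05, -0.05 and -0.06.

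Receptors and engulfment genes of dead-cell uptake moved in part. Of 21 measured genes, 8 fell and 3 rose in fiona against mdx muscle, where 6.79% of all genes fell and 32.1% rose. In mdx against normal muscle 4 rose and 0 fell, where 3.22% of all genes rose and 1.44% fell. With median-centred arrays the counts in fiona against mdx muscle were 7 and 0, and on the arrays without the female pattern 2 and 1. In mdx against normal muscle 7 rose with array set as a term. Sirpa, a receptor for the signal CD47, fell by 1.57 (limma, adjusted p = 0.00925) and rose by 1.53 in mdx against normal muscle (adjusted p = 0.00704). Stab1, a scavenger receptor of macrophages and vessels, fell by 1.53 (adjusted p = 0.0038) and rose by 1.74 (adjusted p = 0.000767). Lrp1, a receptor for lipoproteins and dying cells, fell by 1.43 in fiona against mdx muscle (adjusted p = 0.0107) and Dock2, an activator of Rac in blood cells, rose at least 2.17-fold in mdx against normal muscle (adjusted p = 0.00944), where all normal arrays were at or under the control level. For fiona against mdx muscle on the arrays without the female pattern, with 1 fiona array, adjusted p was 0.138 for Stab1 and 0.0547 for Lrp1. Mertk, a receptor for dying cells, had differences of -0.35 and 0.24 and passed in neither comparison.

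No probe set was found under the symbol Spp1, but receptors of its protein, osteopontin, were measured. Of 9 receptor genes, 1 rose in mdx against normal muscle, where 3.22% of all genes rose. It was Cd44, which averaged 2.95 ± 0.77 in fiona, 4.96 ± 1.40 in mdx and 2.60 ± 0.23 in normal muscle, with 3 of 5 fiona and 5 of 6 normal arrays no higher than the bacterial controls. It rose at least 4.42-fold there (limma, adjusted p = 0.0151) and fell at least 3.39-fold in fiona against mdx muscle (adjusted p = 0.0152, and 0.49 on the arrays without the female pattern). In fiona against mdx muscle 2 of the 9 fell and 4 rose, against 6.79% and 32.1% of all genes. With median-centred arrays 1 fell and 1 rose, and 2 of the 4 that rose, Itgb3 and Itga8, lay at or under the control level on all 17 arrays. Itgav, an integrin subunit, fell by 0.46 (adjusted p = 0.0458), a call that was lost without any 1 of 13 of the 17 arrays. With the mean of its probe sets the difference of Itgav was -0.12 (limma, adjusted p = 0.561), and with quantile normalization its adjusted p was 0.216. Itga9 rose by 0.63 (adjusted p = 0.0137).

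Other galectins and the galectin-3 binding protein gave 8 measured genes. Lgals3 was chosen for its large difference, so its size is not compared with theirs. In mdx against normal muscle 1 of the 8 rose, where 3.22% of all genes rose. It was Lgals1, which averaged 11.5 ± 0.27 in fiona, 12.9 ± 0.50 in mdx and 11.6 ± 0.42 in normal muscle (difference 1.31, limma, adjusted p = 0.00307). In fiona against mdx muscle 6.79% of all genes fell and 32.1% rose. Lgals1 fell there by 1.43 (limma, adjusted p = 0.00261), Lgals9 by 1.42 (adjusted p = 0.0137) and Lgals3bp, which encodes a protein bound by galectin-3, by 1.45 (adjusted p = 0.0215, and 0.0521 without fiona array 1). The 4 others that passed rose by 0.60 or less, of which 2 did with median-centred arrays. On the arrays without the female pattern none of these 3 falls passed, with adjusted p = 0.232 for Lgals1, 0.0838 for Lgals9 and 0.202 for Lgals3bp, nor did the rise of Lgals1 in mdx against normal muscle (adjusted p = 0.0948).

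Among 13 regulators of lysosome and lipid genes, 0 passed in mdx against normal muscle, where 3.22% of all genes rose and 1.44% fell. That count depended on the fit, since a fit with array set as a term called 1 gene higher and 2 lower, and both the mean of a gene's probe sets and the filter on dim genes called 1 higher and 1 lower. In fiona against mdx muscle 2 of the 13 fell and 1 rose, where 6.79% of all genes fell and 32.1% rose. Abca1, a cholesterol exporter, fell by 2.26 (limma, adjusted p = 0.0159) and Lamp2, a lysosomal membrane protein, by 0.86 (adjusted p = 0.0135). Tfeb, a transcription factor of lysosome genes, rose by 0.76 (adjusted p = 0.0103). On the arrays without the female pattern Abca1 had an adjusted p of 0.558 and Tfeb of 0.435. Abca1 measured 7.17, 6.17, 4.02, 6.81 and 4.43 on the fiona arrays, against 6.73 to 8.62 on the mdx arrays with a median of 8.11 and 5.33 to 8.28 on the normal arrays with a median of 7.21. Its groups overlapped.

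Macrophage markers moved in the same direction as the members, and not all of them did. Of 14, 7 rose in mdx against normal muscle, where 3.22% of all genes rose. In fiona against mdx muscle 9 fell, where 6.79% of all genes fell. Cd68 and Lyz2 also belong to the debris-clearing list above, so the counts are not separate. On the arrays without the female pattern 5 rose in mdx against normal muscle. The median difference fiona minus mdx was -1.27, and -0.89 on those arrays, with 1 fiona array. Csf1r, the receptor of the macrophage growth factor, rose by 2.68 in mdx against normal muscle, Adgre1, which encodes F4/80, by 1.95, Mrc1, the mannose receptor, by 1.75, and Laptm5, a lysosomal protein of blood cells, by 2.74. The rise of Mrc1 had an adjusted p of 0.0505 on the arrays without the female pattern. Cd163, a scavenger receptor of macrophages, averaged 2.93 in fiona, 3.13 in mdx and 3.92 in normal muscle, with a difference mdx minus normal of -0.80 that did not pass (limma, adjusted p = 0.343). Cx3cr1, a chemokine receptor, had a difference of -0.03 and Spi1, the gene of PU.1, of 0.48, and neither passed. The difference between members and markers was not tested. The mean of the 14 markers lay between 4.20 and 4.75 on the fiona arrays, 5.49 and 6.66 on the mdx arrays and 4.17 and 4.70 on the normal arrays, and Cd68, Cd14, Itgam and Fcgr1 were at or under the control level in fiona and normal muscle.

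Markers of other cells were set beside the members. In mdx against normal muscle 5 of 9 markers of myoblasts and regenerating fibres and 3 of 7 fibroblast markers rose, as did 3.22% of all genes. In fiona against mdx muscle 5 of each list fell, as did 6.79% of all genes, and 1 regeneration marker, Pax7, rose by 0.07. With median-centred arrays Pax7 did not pass (adjusted p = 0.214) and its difference was -0.06. On the arrays without the female pattern 2 regeneration markers and 1 fibroblast marker fell in fiona against mdx muscle, and 2 and 1 rose in mdx against normal muscle. The mean of the regeneration markers lay between 4.44 and 4.77 on the fiona arrays, 4.98 and 7.19 on the mdx arrays and 4.06 and 4.44 on the normal arrays, and that of the fibroblast markers between 7.74 and 9.17 on the fiona arrays, 9.54 and 10.9 on the mdx arrays and 8.27 and 9.46 on the normal arrays. Of 5 osteoclast markers, which matter because osteoclasts also make several of the members, Ctsk rose in mdx against normal muscle and fell in fiona against mdx muscle, neither of which passed on the arrays without the female pattern (adjusted p = 0.122 and 0.247), and the defining markers Calcr and Oscar were at or under the control level in all 3 groups. Of 8 neutrophil, 9 lymphocyte and 5 dendritic cell markers, 0 passed in mdx against normal muscle, nor did any of 5 bone and cartilage, 3 Schwann cell and melanocyte, 5 endothelial and 8 muscle fibre markers. Over all genes 3.22% rose and 1.44% fell there, so a count of 0 in lists this short is not read as a result. The neutrophil differences ranged from -1.34 to -0.04, with a median of -0.57. The mean of those markers was 5.685 on the highest normal array, against 3.37 over the normal group. In fiona against mdx muscle 6 lymphocyte and 3 dendritic cell markers rose, with no difference in either list above 0.67, where 32.1% of all genes rose. With median-centred arrays 1 lymphocyte and 0 dendritic cell markers rose, and Cd3d, Cd79a, Xcr1 and Ccr7 lay at or under the control level on all 17 arrays. The part of these other cell types in the members' differences was not tested.

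The all-gene background of fiona against mdx muscle depended on scaling. Of the 4818 genes called, 82.5% were higher in fiona muscle, and with median-centred arrays 45.5% of 1438 were. The median difference over all genes was 0.08 as deposited and -0.04 with median-centred arrays, small beside the differences of Lgals3, Gpnmb, Tyrobp and Mpeg1.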

How the data were processed

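Whole-muscle RNA from 17 mice was measured on 1 single-channel Affymetrix array each. The submitters deposited log2 values for each probe set; per the submitters' processing notes RMA and GCRMA were used, and the sources used here do not give which of them made these values. Raw array files were not used here.

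Of 22690 probe sets, 64 controls, 691 with several gene symbols and 1555 with none were set aside. For each of the 12393 genes the brightest probe set, by its mean over all arrays, was kept. One limma 3.58.1 fit (R 4.3.3, lmFit and eBayes) held the 3 group means, p values were adjusted by Benjamini-Hochberg over all genes, and calls ("rose", "fell") needed an adjusted p under 0.05; adjusted p values without another name are limma's. The steps were tested on simulated data. Differences are on the log2 scale, first-named group minus second. The control level is the array's median over 15 bacterial control probe sets that were not spiked in (2.64 to 2.99), and where arrays of the dimmer group were no higher, it took their place and the fold is given as "at least".

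The members, lists and rules were chosen with earlier results of these data known. Named genes were, per list and comparison, up to 3 called genes with the largest difference or the gene with the smallest p, and the 8 nearest profiles; other list genes were named after their values were seen. The genes with the smallest p in lists without a call were Axl, Syk, Trem3, Itga9, Olr1, Npc1 and Lgals2 for fiona against normal muscle (each with an adjusted p of 0.21 to 0.22) and Adam17, Trem1 and Tfeb for mdx against normal muscle (0.0957, 0.333 and 0.0557). Alternatives covered scaling, probe set choice, a filter on dim genes, the replicate block, array set, sex pattern and leaving out each array. Figures used Python 3.11.15 and matplotlib 3.10.9.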

Additional observations from a re-analysis of the deposited data

Results flagged for a closer look

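Among 99 groups of values tested, 8 held an array that stood apart from the rest of its group, and chance flags about 1 group in 20. On the brighter Trem2 probe set, mdx array 2 measured 4.50, against 3.86 to 3.93 on the other mdx arrays. The same array was the lowest of the mdx arrays for Apoe, at 9.63 against 10.3 to 10.7, and for Abca1, at 6.73 against 7.96 to 8.62, and it was the highest for Trem3, at 2.70 against 2.66 to 2.67. Fiona array 4 was the highest fiona array for Cd44, at 4.29 against 2.45 to 2.92, and fiona array 2 for Lgals9, at 5.94 against 4.26 to 4.72. Normal array 2 was the lowest normal array for Adam10, at 7.57 against 8.27 to 8.52, and normal array 6 the highest for Sirpa, at 6.24 against 5.50 to 5.77.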

How the results depend on the processing

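The number of genes called in fiona against mdx muscle was 4818 and moved to 1438 with median-centred arrays, 1891 with quantile normalization, 2099 after a filter on dim genes, 509 with the replicate block and 1586 on the arrays without the female pattern, and to between 3191 (without fiona array 5) and 5342 (without fiona array 2) when each array was left out. In mdx against normal muscle it was 578, and 1238 with array set as a term, 382 on the arrays without the female pattern and 528 with the replicate block. In fiona against normal muscle it was 0, and 1 with the mean of a gene's probe sets, 1 with the replicate block, 19 with array set as a term and 466 on the arrays without the female pattern, where 1 fiona array is assumed to vary like the other groups. Leaving out each array gave 0 to 974 there, and the 974 came without fiona array 2. The median over the 5 measured members for fiona minus mdx was -3.88 on the arrays without the female pattern. The number of genes of the debris-clearing list called in fiona against normal muscle was 1 on the arrays without the female pattern and 0 to 1 when each array was left out. In fiona minus mdx, the difference of Trem1 turned to -0.0454 and that of Clec5a to -0.0467 with median-centred arrays, and that of Clec5a to -0.0075 with quantile normalization. All arrays were at or under the control level for both genes. Replicate numbers were not taken to pair the arrays: residuals of same-numbered arrays correlated at -0.42 to 0.30 for fiona and mdx, 0.09 to 0.61 for mdx and normal, and -0.49 to 0.48 for fiona and normal arrays, and 1 of 6 mdx arrays correlated best with the normal array of its number. The best normal match of each mdx array did lie in its own array set, and in these groups the sets follow the numbers. Such correlations cannot tell whether several numbers share a block, and the origin of the sets was not tested. With the replicate block, the calls of Grb2, Adam10, Adam17, Trem1, Trem3, Clec5a, Cd44, Itgav, Itga9, Abca1, Lamp2, Lgals9 and Lgals3bp in fiona against mdx muscle were lost, with adjusted p between 0.0507 and 0.0916. Further calls were lost with it, among them Mmp12 and Cd9 (limma, adjusted p = 0.0507 each), Igf1 (0.0717) and Syk (0.055). So were those of Vav3 (0.0718), Pik3cg (0.119), Klrk1 (0.112) and Pax7 (0.122). With that block the counts in fiona against mdx muscle were 5 lower and 0 higher for dead-cell uptake, 3 lower for regeneration and 2 lower for fibroblast markers, and 0 for TREM2 signalling, Spp1 receptors, lymphocyte and dendritic cell markers. The causes were not tested.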
